A study of Homo sapiens with 26 samples.

Results

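The 9 genes described here encode 2 proteins that CPI203 binds, BRD2 and BRD3, and the machinery through which the elongation kinase P-TEFb is held back, activated and used: HEXIM1, HEXIM2, LARP7, CDK9, CCNT1, CCNT2 and ELL2. They were chosen by gene symbol, as 9 of the 63129 genes in an RNA sequencing table of 26 libraries, and all 9 passed the filter on low values in both cell lines. A375 is an established human melanoma line with mutant BRAF, and NOMO-1 is an established human acute myeloid leukaemia line. CPI203 is a small molecule that blocks the bromodomains of the BET proteins, and DMSO is its solvent.

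The libraries form 13 groups of 2. Of A375 there were 2 clones called resistant in the sample titles, clone 1 and clone 4, and the parental cells. Each of these 3 populations was taken after 6 h with 1 uM CPI203, after 6 h with DMSO, and untreated at 0 h. Of NOMO-1 there was 1 tolerant population, which the labels also call a resistant clone, and the parental cells, each after 24 h with 1 uM CPI203 or with DMSO. A375 cells grew in DMEM with 10% serum and NOMO-1 cells in RPMI with 20% serum. Whether the clones and the tolerant cells were kept in CPI203 up to the experiment is not given in the sources used here, so "untreated" and "DMSO" name the last step alone. Each A375 tolerant population is 1 clone, and NOMO-1 has 1 tolerant population. In both lines a property of that clone or population and a property of tolerance cannot be told apart. Time and medium differ between the lines as well, so the lines were fitted separately. Nothing in the labels says that the 2 libraries of a group came from separate cultures, and p-values then measure the spread between these libraries, which may be technical.

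P-TEFb is the kinase CDK9 bound to a cyclin T, and it releases RNA polymerase II from its pause near the start of genes. A large part of P-TEFb is held inactive in a particle of the 7SK RNA, in which HEXIM1 or HEXIM2 blocks the kinase and LARP7 protects the RNA. BET proteins bind acetylated histones through paired bromodomains and bring active P-TEFb to genes, and ELL2 travels with P-TEFb in the super elongation complex. A rise of HEXIM1 mRNA is widely used as a marker that a BET inhibitor has reached its target.

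Before the comparisons, the quality of the libraries has to be stated. The parental A375 DMSO replicate 1, the clone 4 DMSO replicate 1 and the clone 4 CPI203 replicate 2 stood apart from their partners. The median absolute log2 difference between the replicates was 0.28 for clone 4 in DMSO, 0.22 for clone 4 in CPI203 and 0.218 for parental cells in DMSO. The other 6 A375 groups gave 0.0658 to 0.118, and the NOMO-1 groups gave 0.0759 to 0.172. Apart from HLA-DMA, which overlaps BRD2, differences of named genes that passed and use these groups are given with and without those 3 libraries. So are some that did not pass. Where a comparison uses none of the 3, the log2 difference is the same and its error is not, since all A375 groups share an estimate of the spread. FPKM summed to 501933 to 637916 per A375 library and to 417391 to 488682 per NOMO-1 library. No read counts were used, so the depth is unknown. Titles decided the group of the 4 clone libraries at 0 h, which another label gives as parental.

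The identity of the lines was checked against their markers. In A375, the melanoma markers SOX10 (126 to 318 FPKM), S100B (17.9 to 83.4) and MITF (3.47 to 16.1) were present, while the pigment genes PMEL, MLANA and DCT stayed at or below 1.53 FPKM and TYR was listed at 0. In NOMO-1, the myeloid markers SPI1 (33.9 to 189 FPKM), CD33 (29.3 to 76.4), ITGAM (21.9 to 72.9), LYZ and MPO were present, PTPRC ranged from 0.244 to 59.4 FPKM and CD14 was at most 0.723 FPKM. Among the myeloid markers in A375, CD33 stood at 20.5 to 35.0 FPKM in the 12 clone libraries and at 0.149 to 0.881 FPKM in the 6 parental ones. PTPRC, SPI1 and CD14 were at or below 0.236 FPKM in all 18 A375 libraries, ITGAM was at most 0.681 FPKM and MPO was listed at 0. LYZ ranged from 0.861 to 12.8 FPKM in A375. In DMSO its mean was 12.6 FPKM in clone 1, 7.15 in clone 4 and 5.59 in parental cells. Untreated, the LYZ mean was 0.928, 1.30 and 2.49 FPKM, in that order. Summed over the 7 myeloid markers, clone libraries held 22.4 to 42.5 FPKM and parental A375 libraries 3.59 to 6.01, and without CD33 the sums were 0.911 to 13.0 and 2.77 to 5.76. The 7 melanocyte markers summed to 152 to 249 FPKM in clone libraries and 325 to 416 in parental A375 libraries. NOMO-1 libraries held 138 to 1830 FPKM of the myeloid markers, and the populations differed within that range. In DMSO, LYZ was at 45.9 and 43.3 FPKM in tolerant cells and at 1440 FPKM in both parental libraries. CD33 in DMSO was at 73.8 and 76.4 FPKM in tolerant cells and at 73.3 and 61.4 FPKM in parental cells. The part of such marker differences in the NOMO-1 results was not tested. Markers of epithelial, fibroblast, endothelial, erythroid and lymphoid cells summed to at most 1.80 FPKM per type in any library.

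In hg19, HEXIM1 (ENSG00000186834) lies at chr17:43224684-43229468 and HEXIM2 (ENSG00000168517) at chr17:43238067-43247407, on the same strand and 8598 bases apart, and HEXIM1 is a gene of a single exon. BRD2 (ENSG00000204256) lies at chr6:32936437-32949282, BRD3 (ENSG00000169925) at chr9:136895427-136933657, LARP7 (ENSG00000174720) at chr4:113558120-113578748 and CDK9 (ENSG00000136807) at chr9:130547958-130553066. CCNT1 (ENSG00000129315) lies at chr12:49082247-49110681, CCNT2 (ENSG00000082258) at chr2:135675805-135716912 and ELL2 (ENSG00000118985) at chr5:95220802-95297775. The table has 6 further BRD2 rows, all listed at 0. The strandedness of the libraries is not given in the sources used here, so reads of a gene and of a partner on the other strand cannot be told apart. Such partners are HLA-DMA, which shares 435 bases with BRD2, LINC00094, which shares 4362 bases with BRD3, and AC002117.1, which overlaps both HEXIM genes and reached at most 3.08 FPKM.

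The promoters of HEXIM1 and BRD2 are shown because these 2 genes rose together under CPI203 in all 5 populations. ELL2 also rose in all 5, but no promoter was matched to it. Both promoters shown are RefSeq sequences of GRCh38.p14, each from 250 bases before to 50 bases after the annotated start. Capitals mark the GC box GGGCGG, the TATA box, which was searched as TATAAA, and the CCAAT motif, each on either strand.

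HEXIM1: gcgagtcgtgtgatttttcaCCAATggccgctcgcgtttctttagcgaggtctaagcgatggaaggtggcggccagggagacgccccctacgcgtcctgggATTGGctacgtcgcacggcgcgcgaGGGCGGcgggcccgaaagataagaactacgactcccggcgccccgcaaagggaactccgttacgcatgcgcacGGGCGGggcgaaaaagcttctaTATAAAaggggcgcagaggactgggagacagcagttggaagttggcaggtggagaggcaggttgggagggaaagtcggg

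BRD2: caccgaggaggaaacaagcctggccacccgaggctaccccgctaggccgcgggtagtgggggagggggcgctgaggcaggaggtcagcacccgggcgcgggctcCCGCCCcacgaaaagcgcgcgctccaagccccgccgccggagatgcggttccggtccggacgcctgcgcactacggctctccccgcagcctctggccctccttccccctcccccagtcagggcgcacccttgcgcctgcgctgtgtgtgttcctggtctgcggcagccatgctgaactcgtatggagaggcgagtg

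The HEXIM1 window is chr17:45148225-45148524 on the plus strand and the BRD2 window is chr6:32968344-32968643 on the plus strand. The HEXIM1 window held 2 GC boxes, 2 CCAAT matches and 1 TATA box that begins 29 bases before the start. The BRD2 window held 1 GC box and neither of the other 2 motifs. Of the 35116 promoters in the table, 45.0% held a GC box, 34.6% a CCAAT match and 11.5% a TATA box. CpG dinucleotides numbered 32 in the HEXIM1 window and 30 in the BRD2 window, against a median of 14 over all promoters. The nearest GENCODE transcript start was 27 bases away for HEXIM1 and 66 bases away for BRD2. For HEXIM2 the RefSeq start lay 526 bases from the nearest GENCODE start, so its window is not shown. A further 4 motifs, searched on both strands, were found in neither of the 2 windows shown. They were the E-box CACGTG (held by 7.26% of all promoters), the cyclic AMP response element TGACGTCA (1.85%), the ETS site CCGGAAG (10.3%) and the AP-1 site TGACTCA (4.95%). None of these motifs overlapped another in the 2 windows.

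BRD2 was the most abundant of the 9 mRNAs in all 26 libraries, at 61.3 to 190.0 FPKM in A375 and 82.2 to 231 in NOMO-1. FPKM is a level per transcript length, so levels of different genes may be compared roughly. It can still move with length and GC content, and the 9 genes differ in both. Their longest transcripts run from 1528 to 6973 bases and from 37.0% to 60.9% GC. Rankings and ratios between genes carry that limit. CDK9 ranked 2 or 3 in every library, at 29.7 to 54.0 FPKM in A375 and 33.1 to 58.4 in NOMO-1. BRD3 was far below its relative BRD2, at 3.95 to 13.8 FPKM in A375 and 12.4 to 17.3 in NOMO-1. The lowest of the 9 was HEXIM2 in 14 libraries, CCNT2 in 8 and ELL2 in 4. The widest range belonged to ELL2, whose highest A375 library (19.1 FPKM) was 12.9 times its lowest (1.48 FPKM), while LARP7 varied by no more than 1.59 times within A375 and 1.40 times within NOMO-1. The 2 cyclins divided differently between the lines: CCNT1 made up 74.4% to 82.7% of the summed CCNT1 and CCNT2 level in A375 libraries and 46.6% to 52.6% in NOMO-1 libraries.

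**Figure D1:**
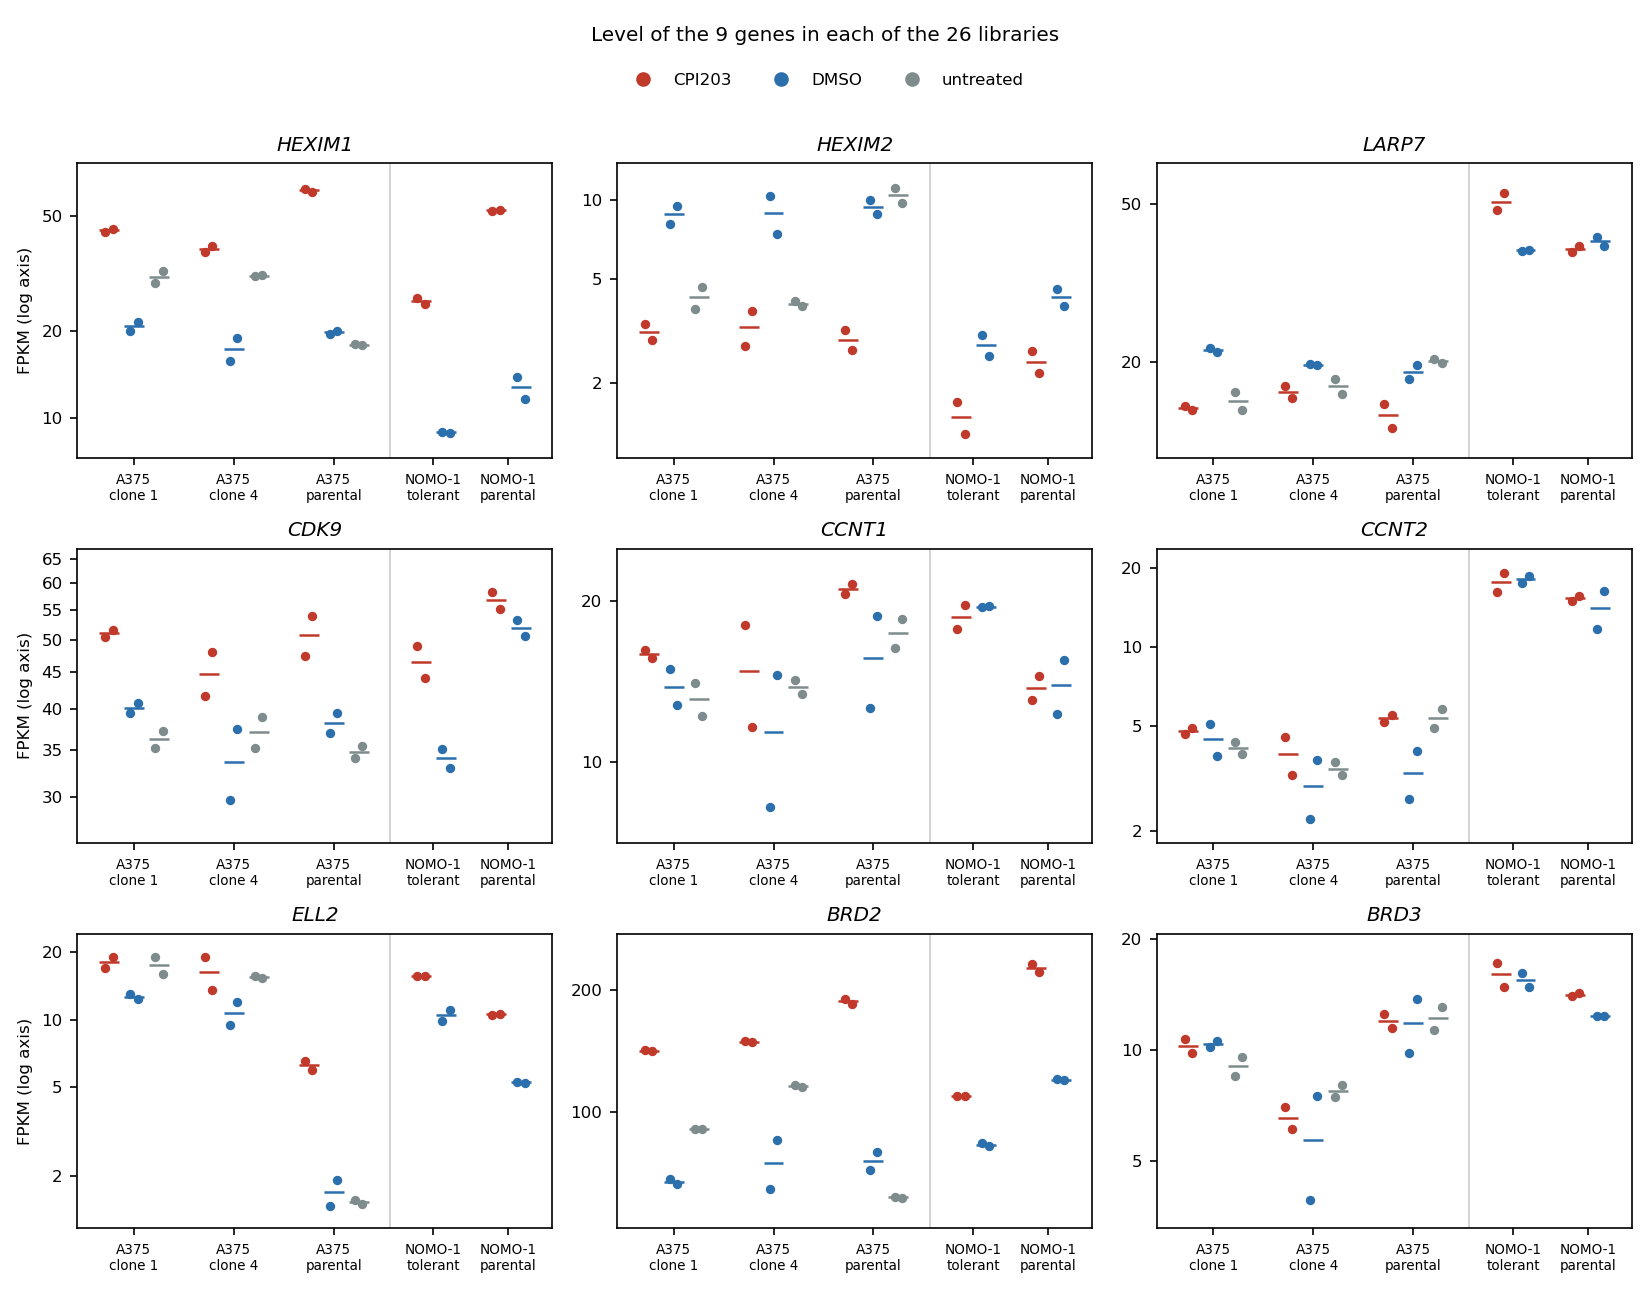
FPKM of the 9 genes (log axis, a scale of its own for each gene) in the 26 libraries, with each point a library and each line the mean of the 2 libraries of a group, by cell population and treatment. HEXIM1 and BRD2 stand highest and HEXIM2 lowest in the CPI203 libraries of each population, and ELL2 is at 1.48 to 1.93 FPKM in the 4 parental A375 libraries without CPI203.

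CPI203 against DMSO asks how the cells' own BET and P-TEFb genes answer when bromodomains are blocked. HEXIM1, BRD2 and ELL2 rose and HEXIM2 fell in all 5 populations, CDK9 rose in 4, LARP7 fell in 2 and rose in 1, CCNT2 rose in 1, and CCNT1 and BRD3 passed in none. In each of the 5 populations the libraries with CPI203 lay above those with DMSO for HEXIM1, BRD2, ELL2 and CDK9 and below them for HEXIM2. Only 2 libraries stand on each side, and the share of all genes that lie apart in this way was not counted. The same limit holds wherever libraries are said below not to overlap. The test was limma on log2(FPKM + 1), with Benjamini-Hochberg adjustment over all genes and a threshold of 0.05, and each difference below is on that scale with its standard error. As background, 22% of all genes tested passed in clone 1, 23.6% in clone 4, 36.4% in parental A375, 39.2% in tolerant NOMO-1 and 60% in parental NOMO-1. Among the 9 genes 6, 5, 7, 6 and 4 passed, in that order. The median absolute log2 difference of the 9 was 0.46, 0.41, 0.57, 0.40 and 0.18, against 0.21, 0.23, 0.29, 0.24 and 0.38 over all genes. In RNA from a whole culture, fewer cells of a kind and less RNA per cell cannot be told apart.

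HEXIM1, the main inhibitor of P-TEFb in the 7SK particle, was at 44.0 and 44.9 FPKM in clone 1 with CPI203, against 19.9 and 21.4 FPKM with DMSO. In clone 4 it was at 37.5 and 39.3 FPKM with CPI203 and at 15.7 and 18.9 FPKM with DMSO. In parental A375 cells it was at 61.9 and 60.3 FPKM with CPI203, against 19.5 and 20.0 FPKM with DMSO. The 6 libraries of A375 with CPI203 were thus the 6 highest A375 libraries, and the parental pair was the highest of all. In NOMO-1 the levels were 25.8 and 24.7 FPKM with CPI203 and 8.95 and 8.88 FPKM with DMSO in tolerant cells. Parental NOMO-1 cells had 51.7 and 52.4 FPKM with CPI203 and 13.8 and 11.6 FPKM with DMSO. Tolerant NOMO-1 cells thus lay below parental ones under both treatments. The log2 differences were 1.07 ± 0.09 in clone 1 (adjusted p = 9.05e-06), 1.11 ± 0.09 in clone 4 (6.42e-06), 1.58 ± 0.09 in parental A375 (9.84e-08), 1.40 ± 0.09 in tolerant NOMO-1 (6.02e-06) and 1.96 ± 0.09 in parental NOMO-1 (5.06e-07), all by limma. Without the 3 libraries that stood apart they were 0.95 ± 0.09 in clone 4 and 1.56 ± 0.07 in parental A375. Ranked by log2 difference from the top, HEXIM1 stood at place 104, 86 and 68 of 16935 genes in clone 1, clone 4 and parental A375, and at place 57 and 78 of 16753 in tolerant and parental NOMO-1.

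HEXIM2, the paralog that can take the place of HEXIM1 in the 7SK particle, went the other way. In clone 1 it was at 3.35 and 2.92 FPKM with CPI203 and at 8.11 and 9.54 FPKM with DMSO, a log2 difference of -1.25 ± 0.16 (limma, adjusted p = 0.000183). Clone 4 had 2.77 and 3.76 FPKM with CPI203 and 10.4 and 7.42 FPKM with DMSO, a difference of -1.21 ± 0.16 (0.000236, and -1.16 ± 0.16 without the 3 libraries). Parental A375 cells had 3.17 and 2.67 FPKM with CPI203 and 10.0 and 8.89 FPKM with DMSO, a difference of -1.42 ± 0.16 (2.82e-05, and -1.34 ± 0.14 without them). The DMSO levels thus lay close together across the 3 A375 populations, as did the CPI203 levels. In NOMO-1 the level was lower throughout and the fall smaller: 1.69 and 1.28 FPKM with CPI203 and 3.06 and 2.53 with DMSO in tolerant cells, and 2.65 and 2.18 with CPI203 and 4.56 and 3.95 with DMSO in parental cells. Those differences were -0.61 ± 0.13 (0.00614) and -0.62 ± 0.13 (0.00334), and a pseudocount of 1 understates changes at such levels. The call in tolerant NOMO-1 was lost without DMSO replicate 1 (-0.51) and without CPI203 replicate 2 (-0.49).

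Because the 2 genes moved in opposite directions, both the make-up of the summed HEXIM mRNA and its level differed. In A375, HEXIM1 made up 93.4% ± 0.71 of the summed HEXIM1 and HEXIM2 FPKM in clone 1 with CPI203 (SD, n = 2), against 70.2% ± 1.3 with DMSO. Clone 4 had 92.2% ± 1.3 with CPI203 and 66.0% ± 8.1 with DMSO, and parental cells had 95.4% ± 0.49 with CPI203 and 67.7% ± 2.2 with DMSO. In NOMO-1 the share was 94.4% ± 0.92 with CPI203 and 76.2% ± 2.3 with DMSO in tolerant cells, and 95.5% ± 0.64 with CPI203 and 74.9% ± 0.42 with DMSO in parental cells. All 10 CPI203 libraries lay at 91.3% or above, and all 10 DMSO libraries at 77.8% or below. The sum itself was 47.6 ± 0.28 FPKM with CPI203 and 29.5 ± 2.1 with DMSO in clone 1, 41.7 ± 2.0 and 26.2 ± 0.15 in clone 4, and 64.0 ± 1.5 and 29.2 ± 0.43 in parental A375 cells, with CPI203 given first each time. In NOMO-1 it was 26.7 ± 1.1 FPKM with CPI203 and 11.7 ± 0.42 with DMSO in tolerant cells, and 54.5 ± 0.16 with CPI203 and 17.0 ± 2.0 with DMSO in parental cells. The CPI203 libraries thus lay above the DMSO libraries in each population. Set against the kinase, HEXIM1 stood at 0.871, 0.860 and 1.21 times the CDK9 level with CPI203 in clone 1, clone 4 and parental A375 cells, and at 0.516, 0.516 and 0.517 times with DMSO. In tolerant and parental NOMO-1 cells the ratio was 0.543 and 0.917 with CPI203 and 0.262 and 0.244 with DMSO. These are mRNA ratios and say nothing of protein.

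**Figure D2:**
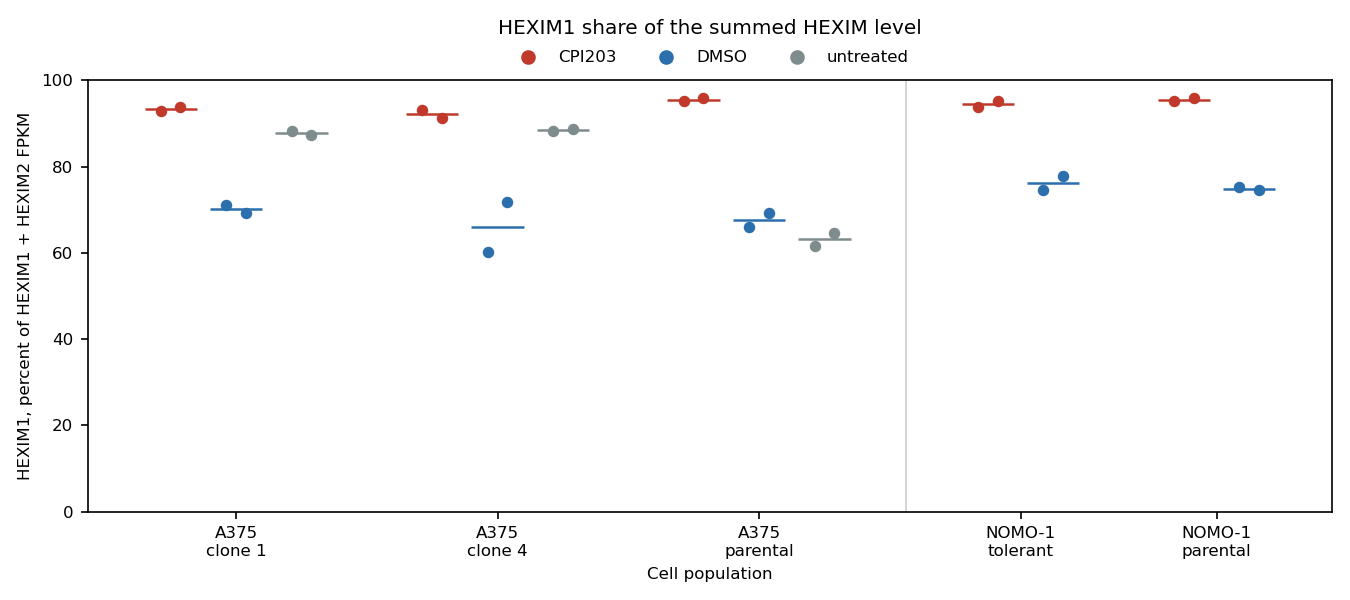
HEXIM1 as a percentage of the summed HEXIM1 and HEXIM2 FPKM in each library (points) with the mean of each group of 2 (lines), by cell population and treatment. All CPI203 libraries lie at 91.3% or above and all DMSO libraries at 77.8% or below, while untreated clone libraries lie at 87.3% to 88.7%.

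LARP7, which binds and protects 7SK RNA, differed between the lines. It fell in clone 1 (15.5 and 15.2 FPKM with CPI203, 21.8 and 21.2 with DMSO, -0.46 ± 0.09, limma adjusted p = 0.00305) and in parental A375 (15.8 and 13.7 FPKM with CPI203, 18.2 and 19.7 with DMSO, -0.35 ± 0.09, 0.0096). In clone 4 the libraries did not overlap either (17.4 and 16.3 FPKM with CPI203, 19.8 and 19.7 with DMSO), but the difference of -0.22 ± 0.09 did not pass (0.107). LARP7 levels in NOMO-1 were higher than in any A375 library, at 38.0 to 53.2 FPKM. Tolerant NOMO-1 cells had 48.3 and 53.2 FPKM with CPI203, against 38.1 and 38.4 with DMSO, a rise of 0.40 ± 0.08 (0.00346). Parental NOMO-1 cells had 38.0 and 39.3 FPKM with CPI203 and 41.3 and 39.2 with DMSO, which overlap. The fall in parental A375 did not pass without DMSO replicate 2 (-0.29) or without CPI203 replicate 2 (-0.25). Without the 3 libraries the difference was -0.40 ± 0.10 in parental A375 (0.00525) and -0.16 ± 0.11 in clone 4 (0.295).

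CDK9, the kinase of P-TEFb, rose by a small amount. It was at 50.5 and 51.6 FPKM with CPI203 and 39.4 and 40.7 with DMSO in clone 1 (0.34 ± 0.11, limma adjusted p = 0.045), and at 41.6 and 48.0 with CPI203 and 29.7 and 37.5 with DMSO in clone 4 (0.41 ± 0.11, 0.0184). Parental A375 cells had 47.5 and 54.0 FPKM with CPI203 and 37.0 and 39.5 with DMSO (0.40 ± 0.11, 0.0144), and tolerant NOMO-1 cells had 49.0 and 44.1 with CPI203 and 35.2 and 33.1 with DMSO (0.44 ± 0.08, 0.00279). In parental NOMO-1 cells, with 58.4 and 55.2 FPKM with CPI203 and 53.3 and 50.6 with DMSO, the difference of 0.13 ± 0.08 did not pass (0.212). The A375 calls are the less secure ones: clone 1 lost its call in each of 4 fits that left out 1 library (0.32 to 0.36), clone 4 without DMSO replicate 1 (0.25), without CPI203 replicate 2 (0.31) and without the 3 libraries (0.15 ± 0.10), and parental A375 without DMSO replicate 1 (0.35) and without CPI203 replicate 2 (0.31). With the 3 libraries left out, the value was 0.35 ± 0.09 in parental A375 (0.0057), and clone 1 stayed at 0.34 ± 0.07 (0.00217).

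Of the cyclins that activate CDK9, CCNT1 passed in no population (adjusted p of 0.189 to 0.975, limma), with 95% intervals of its log2 difference from -0.10 to 0.94 in parental A375 and from -0.27 to 0.26 in parental NOMO-1. The CCNT1 difference was 0.42 ± 0.24 in parental A375 and 0.37 ± 0.24 in clone 4, and without the 3 libraries 0.16 ± 0.11 and 0.29 ± 0.13, which did not pass either. CCNT2 passed in parental A375 alone, at 5.21 and 5.51 FPKM with CPI203 and 2.65 and 4.03 with DMSO (0.57 ± 0.20, 0.0412). That call was lost without DMSO replicate 1 (0.34), without CPI203 replicate 1 (0.60) and without CPI203 replicate 2 (0.54), and under 4 other alternatives, among them the fit with the replicate number as a block. When these 3 libraries were dropped, it was 0.34 ± 0.14 (0.0722), and the clone 4 value was 0.24 ± 0.16, against 0.32 with them. In NOMO-1 the level of CCNT2 was 11.7 to 19.1 FPKM in all 8 libraries, against 2.23 to 5.80 in the 18 A375 libraries, which do not overlap.

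ELL2, which speeds the polymerase within the super elongation complex, rose in all 5 populations, and the size differed. Parental A375 cells had 6.55 and 5.97 FPKM with CPI203, against 1.48 and 1.93 with DMSO, a log2 difference of 1.43 ± 0.16 (limma, adjusted p = 1.97e-05), or 1.31 ± 0.11 without the 3 libraries. The clones were already far higher: clone 1 had 17.0 and 19.0 FPKM with CPI203 and 13.0 and 12.4 with DMSO (0.48 ± 0.16, 0.0458), and clone 4 had 19.1 and 13.6 with CPI203 and 9.51 and 12.0 with DMSO (0.55 ± 0.16, 0.0224, and 0.63 ± 0.13 without the 3 libraries). Tolerant NOMO-1 cells had 15.7 and 15.7 FPKM with CPI203 and 9.87 and 11.1 with DMSO (0.54 ± 0.09, 0.00119), and parental NOMO-1 cells had 10.5 and 10.6 with CPI203 and 5.27 and 5.24 with DMSO (0.88 ± 0.09, 3.45e-05). The parental A375 level with CPI203 thus stayed below every clone library, with or without CPI203. The clone 1 call was lost in each of 4 fits that left out 1 library (0.40 to 0.55), and the clone 4 call without DMSO replicate 1 (0.40) and without CPI203 replicate 1 (0.32). After the 3 libraries were left out, clone 1 passed at the same difference (0.48 ± 0.09, 0.00152).

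BRD2, itself a target of CPI203, was at 142 and 141 FPKM with CPI203 and 68.2 and 66.4 with DMSO in clone 1, and at 149 and 148 with CPI203 and 64.6 and 85.3 with DMSO in clone 4. Parental A375 cells had 190.0 and 185 FPKM with CPI203 and 71.7 and 79.5 with DMSO. All 6 A375 libraries with CPI203 exceeded every other A375 library. In NOMO-1, tolerant cells had 109 FPKM in both libraries with CPI203, against 83.6 and 82.2 with DMSO, and parental cells had 231 and 221 with CPI203, against 120.1 and 119.7 with DMSO. The log2 differences were 1.06 ± 0.11 in clone 1, 0.99 ± 0.11 in clone 4, 1.30 ± 0.11 in parental A375, 0.40 ± 0.07 in tolerant NOMO-1 and 0.91 ± 0.07 in parental NOMO-1, with limma adjusted p from 1.65e-06 to 0.00138. Without the 3 libraries the value was 0.80 ± 0.06 in clone 4 and 1.23 ± 0.05 in parental A375. HLA-DMA, which overlaps BRD2 on the other strand, moved the other way in parental A375 (-0.51 ± 0.16, limma adjusted p = 0.028) and parental NOMO-1 (-0.96 ± 0.17, 0.00116). It did not pass in clone 1 (-0.16 ± 0.16, 0.541), clone 4 (-0.29 ± 0.16, 0.222) or tolerant NOMO-1 (0.06 ± 0.17, 0.824). In parental A375, HLA-DMA was at 35.0 and 36.0 FPKM with CPI203. With DMSO it was at 58.0 FPKM in replicate 1, which stood apart, and at 44.4 FPKM in replicate 2.

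BRD3, the second BET gene described here, did not pass in any population, with log2 differences of -0.02 to 0.22 and limma adjusted p of 0.137 to 0.968. Its 95% interval ran from -0.47 to 0.43 in clone 1, -0.23 to 0.67 in clone 4, -0.42 to 0.49 in parental A375, -0.17 to 0.26 in tolerant NOMO-1 and -0.04 to 0.39 in parental NOMO-1. With the 3 libraries left out, the sign turned in both groups that hold them, to -0.19 ± 0.11 in parental A375 and -0.09 ± 0.13 in clone 4, against 0.04 and 0.22 with them, and neither passed (0.189 and 0.657). The BRD2 level was accordingly 13.8, 22.8 and 15.7 times the BRD3 level with CPI203 in clone 1, clone 4 and parental A375, and 6.48, 13.9 and 6.53 times with DMSO. In tolerant and parental NOMO-1 cells it was 6.85 and 16.0 times with CPI203 and 5.36 and 9.67 times with DMSO.

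**Figure D3:**
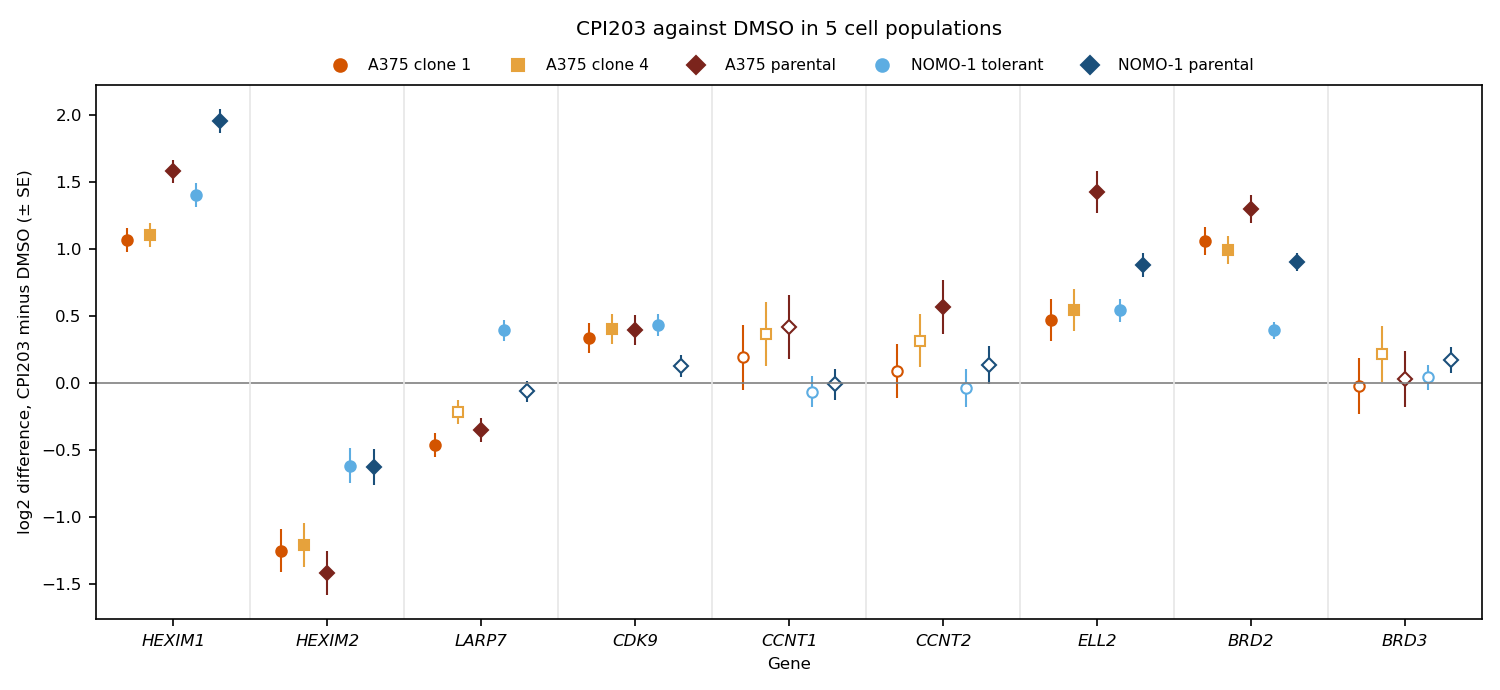
Log2 difference between CPI203 and DMSO for each of the 9 genes in 5 cell populations, with bars for 1 SE. Filled symbols passed at an adjusted p below 0.05 in limma and open symbols did not. HEXIM1, ELL2 and BRD2 lie above 0 and HEXIM2 below 0 in all 5 populations, and CCNT1 and BRD3 have open symbols throughout.

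In clone 4, none of these calls passed when only the 4 compared libraries were fitted, where the count of all genes passing was 24 in place of 3998. The values themselves are the same in that fit. Without clone 4 DMSO replicate 2, which leaves a library that stood apart as the only DMSO one, BRD3 (0.61), CCNT1 (0.75) and CCNT2 (0.60) also passed.

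The design also asks whether tolerant cells answer CPI203 by less than parental cells. In NOMO-1, BRD2 and HEXIM1 rose by less in tolerant than in parental cells, with differences of the effect of -0.51 ± 0.09 (limma, adjusted p = 0.00332) and -0.55 ± 0.13 (0.0117), and the LARP7 effect was higher in tolerant cells by 0.46 ± 0.11 (0.0131). There 31.8% of all genes tested passed. ELL2 (-0.34 ± 0.12, 0.0653) and CDK9 (0.31 ± 0.12, 0.0709) did not pass. The HEXIM1 call was lost without parental CPI203 replicate 2 (-0.54), and the LARP7 call without parental CPI203 replicate 1 (0.43) or without tolerant DMSO replicate 1 (0.45) or 2 (0.46). In A375, 1 of the 9 genes passed for clone 1 and none for clone 4, where 1.91% and 2.29% of all genes did. That gene was ELL2, whose effect was lower in clone 1 than in parental cells by 0.95 on the log2 scale (-0.95 ± 0.22, 0.049), a call lost in 7 of 8 fits that left out 1 library and under 3 other alternatives, and passed without the 3 libraries (-0.83 ± 0.14, 0.00781). In clone 4 the ELL2 difference was -0.88 ± 0.22 (0.067), and -0.68 ± 0.17 (0.0698) without the 3 libraries. It passed under 5 alternatives, among them the length and GC correction (-0.84, 0.00157) and the fit without clone 4 CPI203 replicate 1 (-1.11, 0.0169). HEXIM1 was close to the threshold in both clones (-0.51 ± 0.13, 0.0662 in clone 1, and -0.47 ± 0.13, 0.0884 in clone 4), and it passed without the 3 libraries (-0.49 ± 0.10, 0.0139, and -0.61 ± 0.11, 0.0163). BRD2 passed for clone 4 without those libraries (-0.42 ± 0.08, 0.0145, against -0.30 with them) and did not for clone 1 (-0.16 ± 0.06, 0.197, against -0.24 with them). In clone 4, where limma called none of the 9, 2 had an unadjusted p below 0.05, HEXIM1 and ELL2. The HEXIM2 effect did not pass in any of these tests, with 95% intervals of its difference from -0.33 to 0.66 in clone 1, -0.29 to 0.71 in clone 4 and -0.42 to 0.44 in NOMO-1. The tests of the 2 clones share the parental libraries and are not independent.

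Tolerant against parental cells in DMSO asks what differs in the solvent alone. In A375 the difference was ELL2: clone 1 had 13.0 and 12.4 FPKM and clone 4 had 9.51 and 12.0 FPKM, against 1.48 and 1.93 FPKM in parental cells. The log2 differences were 2.34 ± 0.16 (limma, adjusted p = 1.64e-07) and 2.12 ± 0.16 (3.44e-07), or 5.07 and 4.34 times on the scale of FPKM + 1. When these 3 libraries were dropped, they were 2.22 ± 0.11 and 2.15 ± 0.13. BRD3 was lower in clone 4 (3.95 and 7.51 FPKM, against 9.85 and 13.8 FPKM in parental cells, -0.97 ± 0.21, 0.00323, and -0.80 ± 0.13 without the 3 libraries). No other of the 9 genes passed in clone 1, where 25.2% of all genes did, or in clone 4, where 31.4% did. The HEXIM1 and HEXIM2 levels in DMSO were within 0.19 log2 units of the parental ones in both clones, and without the 3 libraries the clone 4 differences were -0.08 ± 0.09 for HEXIM1 and -0.23 ± 0.16 for HEXIM2. After the 3 libraries were left out, BRD2 (-0.24 ± 0.05, 0.00312), BRD3 (-0.38 ± 0.11, 0.0193) and CCNT1 (-0.41 ± 0.11, 0.0127) also passed as lower in clone 1. Leaving out clone 4 DMSO replicate 2 keeps a library that stood apart as the only DMSO one of clone 4. In that fit BRD2 was at -0.22, HEXIM1 at -0.31, CDK9 at -0.35 and CCNT1 at -0.83. Without the 3 libraries instead, the clone 4 differences were 0.10 for BRD2, -0.07 for CDK9 and -0.34 for CCNT1. The BRD3 call in clone 4 was lost when only the compared libraries were fitted. The CD33 levels given above divided the clone and parental libraries in the same way as ELL2, and the melanocyte marker sums divided them the other way. The part of either in these results was not tested.

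In NOMO-1 in DMSO, 64.4% of all genes passed and 8 of the 9 did. ELL2 was higher in tolerant cells (9.87 and 11.1 FPKM, against 5.27 and 5.24 FPKM in parental cells, 0.87 ± 0.09, adjusted p = 2.35e-05), as were CCNT1 (19.4 and 19.6 against 12.3 and 15.5 FPKM, 0.47 ± 0.12, 0.00603), CCNT2 (17.5 and 18.7 against 11.7 and 16.3 FPKM, 0.36 ± 0.14, 0.048) and BRD3 (16.2 and 14.8 against 12.4 and 12.4 FPKM, 0.30 ± 0.09, 0.0198). The libraries of these 4 genes did not overlap. CDK9 was lower (35.2 and 33.1 FPKM in tolerant cells, 53.3 and 50.6 in parental cells, -0.59 ± 0.08, 0.000195), as were BRD2 (-0.53 ± 0.07, 9.3e-05), HEXIM2 (-0.47 ± 0.13, 0.0126) and HEXIM1 (-0.46 ± 0.09, 0.00177). LARP7 did not pass (-0.07 ± 0.08, 0.44). Thus the kinase and both inhibitors were lower and both cyclins higher in the tolerant cells, and the sum of the HEXIM levels was 0.344 ± 0.0021 times CDK9 in tolerant cells and 0.326 ± 0.027 times in parental cells (SD, n = 2 each). The median of all genes shifted by 0.11 under quantile normalization. Relative to the median of all genes the differences were 0.94 for ELL2, 0.54 for CCNT1, 0.43 for CCNT2, 0.37 for BRD3, -0.52 for CDK9, -0.46 for BRD2, -0.40 for HEXIM2 and -0.39 for HEXIM1. The least secure calls were CCNT2, lost without parental DMSO replicate 1 (0.14), without tolerant DMSO replicate 1 (0.41) or 2 (0.32) and under 4 other alternatives, HEXIM2, lost without parental DMSO replicate 1 (-0.38), without tolerant DMSO replicate 2 (-0.37) and under 2 others, and BRD3, lost without tolerant DMSO replicate 1 (0.24). LINC00094, on the other strand of BRD3, was lower in tolerant cells (-1.03 ± 0.11, 4.71e-05), and HLA-DMA, on the other strand of BRD2, was at 0.294 and 0.405 FPKM in tolerant cells and 33.9 and 27.5 FPKM in parental cells.

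**Figure D4:**
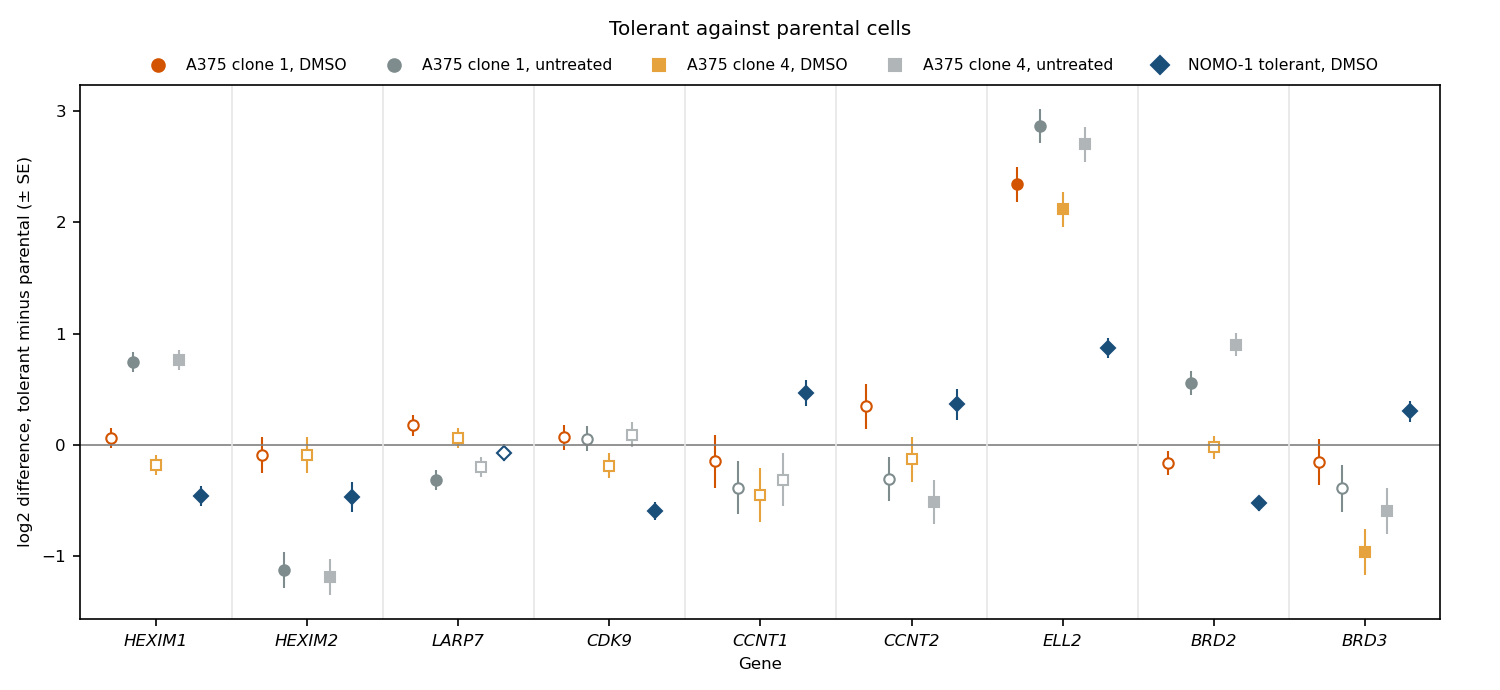
Log2 difference between tolerant and parental cells for each of the 9 genes, for A375 clones 1 and 4 in DMSO and untreated and for NOMO-1 in DMSO, with bars for 1 SE. Filled symbols passed at an adjusted p below 0.05 in limma. ELL2 lies highest in all 5 comparisons, and HEXIM1, HEXIM2 and BRD2 have filled symbols in the untreated comparisons of A375 and open ones in its DMSO comparisons, where HEXIM1 in clone 4 lies at -0.19 and BRD2 in clone 1 at -0.16.

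The untreated clones gave another picture. At 0 h, ELL2 was at 19.1 and 15.9 FPKM in clone 1 and 15.6 and 15.3 FPKM in clone 4, against 1.56 and 1.50 FPKM in parental cells, with differences of 2.87 ± 0.16 (limma, adjusted p = 9.04e-09) and 2.70 ± 0.16 (1.38e-08). HEXIM1 was at 29.2 and 32.2 FPKM in clone 1 and 30.9 and 31.1 FPKM in clone 4, against 17.9 FPKM in both parental libraries, with differences of 0.74 ± 0.09 (1.55e-05) and 0.76 ± 0.09 (1.16e-05). BRD2 was at 90.9 and 90.8 FPKM in clone 1 and 116 and 115 FPKM in clone 4, against 61.8 and 61.3 FPKM in parental cells, with differences of 0.56 ± 0.11 (0.000745) and 0.90 ± 0.11 (1.17e-05). HEXIM2 was at 3.85 and 4.67 FPKM in clone 1 and 4.10 and 3.94 FPKM in clone 4, against 11.2 and 9.74 FPKM in parental cells, with differences of -1.13 ± 0.16 (8e-05) and -1.19 ± 0.16 (4.56e-05). For all 4 genes the clone and parental libraries did not overlap. The HEXIM1 share of the HEXIM sum was 87.8% ± 0.71 in clone 1 and 88.5% ± 0.28 in clone 4, against 63.2% ± 2.2 in parental cells (SD, n = 2 each).

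In these untreated comparisons 48.1% of all genes passed for clone 1 and 51.1% for clone 4, and 5 and 6 of the 9 did. LARP7 was lower in clone 1 (-0.32 ± 0.09, adjusted p = 0.0108), a call lost without parental replicate 1 (-0.30), without clone 1 replicate 2 (-0.25) and under both other scalings. BRD3 (-0.59 ± 0.21, 0.0299) and CCNT2 (-0.51 ± 0.20, 0.0472) were lower in clone 4, calls lost in each of the 4 fits that left out 1 library (-0.69 to -0.50 and -0.61 to -0.42). These comparisons use none of the 3 libraries, and with those left out of the fit BRD3 (-0.39 ± 0.09, 0.00232), CCNT1 (-0.39 ± 0.09, 0.00283) and CCNT2 (-0.31 ± 0.12, 0.0337) also passed as lower in clone 1, and CCNT1 (-0.31 ± 0.09, 0.00953) and LARP7 (-0.20 ± 0.08, 0.038) in clone 4. The median of all genes was -0.12 for clone 1 and -0.08 for clone 4, and quantile normalization moved it by 0.17 and 0.16. Relative to that median the differences for clone 1 and clone 4 were 2.98 and 2.78 for ELL2, 0.86 and 0.84 for HEXIM1, 0.67 and 0.98 for BRD2, and -1.01 and -1.11 for HEXIM2. The split of the called members was 3 higher and 2 lower for clone 1 and 3 higher and 3 lower for clone 4. Quantile normalization gave 3 and 1 for clone 1 and 3 and 2 for clone 4, and median-ratio scaling gave 3 and 1 for both.

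DMSO at 6 h against untreated cells asks whether 6 h in the solvent goes with another level of these genes. Untreated cells were taken at 0 h, so solvent, time and handling cannot be told apart. In parental A375, limma called none of the 9, while 22.5% of all genes passed, and 2 had an unadjusted p below 0.05, BRD2 (0.29 ± 0.11, adjusted p = 0.0661) and CCNT2 (-0.57 ± 0.20, 0.0592). Without the 3 libraries, which leaves DMSO replicate 2 alone in its group, BRD2 was at 0.37 ± 0.05 and CCNT2 at -0.34 ± 0.14. CCNT2 passed under quantile normalization (-0.51) and under median-ratio scaling (-0.59). It was at -0.80 without DMSO replicate 2, where the only DMSO library left is replicate 1, which stood apart. In the clones, 43.2% of all genes passed for clone 1 and 41.3% for clone 4. HEXIM1 fell in both (-0.55 ± 0.09, 0.000333, and -0.81 ± 0.09, 2.3e-05), as did BRD2 (-0.43 ± 0.11, 0.00562, and -0.63 ± 0.11, 0.000517) and ELL2 (-0.43 ± 0.16, 0.0399, and -0.49 ± 0.16, 0.0234), and HEXIM2 rose (0.90 ± 0.16, 0.000677, and 0.96 ± 0.16, 0.000554). LARP7 rose in clone 1 (0.41 ± 0.09, 0.00301). Without the 3 libraries the clone 4 values were -0.68 ± 0.07 for HEXIM1, -0.43 ± 0.05 for BRD2, -0.34 ± 0.11 for ELL2 and 0.75 ± 0.14 for HEXIM2. The ELL2 calls were lost in 3 of 4 fits of clone 1 that left out 1 library, namely without untreated replicate 1 (-0.31), DMSO replicate 1 (-0.46) or DMSO replicate 2 (-0.40), and in clone 4 without untreated replicate 1 (-0.48), untreated replicate 2 (-0.51) or DMSO replicate 1 (-0.34).

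Here too the scaling mattered, since the median of all genes was 0.15 for clone 1 and 0.11 for clone 4, and median-ratio scaling moved it by -0.17 and -0.13. Relative to that median the differences in clone 1 and clone 4 were -0.69 and -0.92 for HEXIM1, -0.57 and -0.74 for BRD2, -0.58 and -0.61 for ELL2, and 0.76 and 0.85 for HEXIM2, and LARP7 in clone 1 was at 0.26. The called members in clone 1 were 2 higher and 3 lower, and 1 higher and 3 lower under median-ratio scaling, where LARP7 did not pass (0.22).

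The difference between clones and parental cells in this change from untreated to DMSO was tested, as a comparison added after the data were seen. It passed for HEXIM1 (-0.68 ± 0.13, adjusted p = 0.00204 for clone 1, and -0.94 ± 0.13, 0.000229 for clone 4), BRD2 (-0.72 ± 0.15, 0.00435, and -0.92 ± 0.15, 0.000891) and HEXIM2 (1.04 ± 0.23, 0.00647, and 1.10 ± 0.23, 0.00476), and for LARP7 in clone 1 (0.49 ± 0.13, 0.0159). Of all genes, 21.5% passed for clone 1 and 20.7% for clone 4. Relative to the median of all genes the values for clone 1 and clone 4 were -0.83 and -1.04 for HEXIM1, -0.87 and -1.02 for BRD2 and 0.89 and 1.00 for HEXIM2, and LARP7 in clone 1 was at 0.34. That median was 0.15 and 0.10, and quantile normalization moved it by -0.17 and -0.12. The LARP7 call was lost under both other scalings and in 4 fits that left out 1 library (0.42 to 0.48). For clone 1 the called genes were 2 higher and 2 lower, and 1 higher and 3 lower under both other scalings. With the 3 libraries left out, the values for clone 1 and clone 4 were -0.70 ± 0.10 and -0.84 ± 0.10 for HEXIM1, -0.79 ± 0.06 and -0.80 ± 0.07 for BRD2 and 1.11 ± 0.18 and 0.96 ± 0.20 for HEXIM2, LARP7 in clone 1 was at 0.44 ± 0.12, and ELL2 passed as well (-0.64 ± 0.14, 0.00515, and -0.55 ± 0.16, 0.0217). HEXIM1, BRD2 and HEXIM2 passed in both clones under every alternative run, the omission of the 3 libraries and of each single library included. The untreated clone libraries thus carried, for these 3 genes, levels between those of DMSO and CPI203 cells of the same clone.

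Other genes of elongation control were read from 5 lists of 38 genes, of which 36 were tested in A375 and 38 in NOMO-1. Under CPI203, 1 rose and 3 fell in clone 1, 4 rose and 3 fell in clone 4, and 6 rose and 6 fell in parental A375. In NOMO-1, 5 rose and 6 fell in tolerant cells, and 10 rose and 12 fell in parental cells. Those are 11.1%, 19.4%, 33.3%, 28.9% and 57.9% of the list genes tested, each below the share of all genes that passed in the same comparison (22%, 23.6%, 36.4%, 39.2% and 60%). When these 3 libraries were dropped, 36.1%, 38.9% and 47.2% passed in clone 1, clone 4 and parental A375, against 42.8%, 29.7% and 45.8% of all genes. The median log2 difference over the lists was 0.12, 0.10, 0.15, 0.02 and -0.03 in clone 1, clone 4, parental A375, tolerant NOMO-1 and parental NOMO-1. Over all genes tested it was -0.03, -0.05, -0.04, 0.00068 and -0.05, in that order.

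Among the pausing factors DSIF and NELF, NELFCD, a subunit of the NELF complex that holds the paused polymerase, fell in clone 1 (-0.64 ± 0.08, limma adjusted p = 0.000116), clone 4 (-0.79 ± 0.08, 2.91e-05) and parental A375 (-0.83 ± 0.08, 6.01e-06). NELFA, another subunit, fell in the same 3 populations (-0.50 ± 0.15, 0.0285, then -0.77 ± 0.15, 0.00243, and -0.51 ± 0.15, 0.017). Of the 6 genes of the list, 0 rose in each A375 population and 2, 2 and 3 fell in clone 1, clone 4 and parental cells. In NOMO-1, 1 rose and 1 fell in tolerant cells, and 1 rose and 3 fell in parental cells. After the 3 libraries were left out, NELFCD was at -0.70 ± 0.08 in clone 4 and -0.79 ± 0.07 in parental A375, and NELFA at -0.83 ± 0.17 and -0.51 ± 0.15, all 4 still lower.

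Some members of the PAF1 complex and the super elongation complex rose. RTF1 and CTR9, of the PAF1 complex, rose in clone 4 (0.79 ± 0.21, 0.0155, and 0.74 ± 0.20, 0.0166), parental A375 (1.03 ± 0.21, 0.00194, and 0.82 ± 0.20, 0.00601), tolerant NOMO-1 (0.55 ± 0.08, 0.000748, and 0.44 ± 0.07, 0.00148) and parental NOMO-1 (0.76 ± 0.08, 5.54e-05, and 0.55 ± 0.07, 0.000209), by limma. In the super elongation complex, MLLT3 rose in clone 1 (0.34 ± 0.09, 0.0212) and parental A375 (0.55 ± 0.09, 0.000684). Without the 3 libraries RTF1 was at 0.64 ± 0.07 in clone 4 and 0.74 ± 0.06 in parental A375, and CTR9 at 0.57 ± 0.12 and 0.63 ± 0.10. In that fit both also passed in clone 1 (0.42 ± 0.05 for RTF1 and 0.56 ± 0.08 for CTR9), MLLT3 passed in clone 4 (0.41 ± 0.12), and MLLT3 stood at 0.53 ± 0.11 in parental A375. EAF2, a partner of ELL proteins, fell in NOMO-1 (-2.12 ± 0.11, 1.4e-06 in tolerant cells, and -1.96 ± 0.11, 1.05e-06 in parental cells), as did the scaffold gene AFF3 (-1.41 ± 0.18, 0.000345, and -2.62 ± 0.18, 4.59e-06). In the 7SK list of MEPCE, PPM1G and JMJD6, 0 of 3 rose in any population under CPI203, and 1 of 3 fell in parental A375, tolerant NOMO-1 and parental NOMO-1.

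The lists were also read for tolerant against parental cells in DMSO. There 2 of 36 were higher and 2 lower in clone 1, 5 higher and 2 lower in clone 4, and 13 of 38 higher and 5 lower in tolerant NOMO-1. That is 11.1%, 19.4% and 47.4% of the list genes tested, each below the 25.2%, 31.4% and 64.4% of all genes. CDK7, the kinase of TFIIH that also activates CDK9, was higher in clone 1 (0.49 ± 0.08, limma adjusted p = 0.000416) and clone 4 (0.66 ± 0.08, 2.39e-05), and NELFCD was lower in both (-0.56 ± 0.08, 0.000145, and -0.45 ± 0.08, 0.000666). With the 3 libraries left out, CDK7 was at 0.44 ± 0.07 and 0.56 ± 0.08, and NELFCD at -0.53 ± 0.07 and -0.49 ± 0.08. In NOMO-1, CDK13, a kinase of later elongation, was higher in tolerant cells (0.86 ± 0.08, 1.08e-05) and AFF3 was lower (-2.39 ± 0.18, 3.77e-06).

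Across the 18 A375 libraries, HEXIM1 and BRD2 followed each other closely (Pearson r of log2(FPKM + 1) = 0.959), and HEXIM2 ran against both (-0.928 with HEXIM1 and -0.932 with BRD2). LARP7 also ran against HEXIM1 (-0.881), and CDK9 ran with it (0.824). CCNT1 and CCNT2 followed each other (0.842) and BRD3 followed CCNT1 (0.761). These values are descriptions over libraries of 9 groups that share their treatments. Among the 10578 genes with a mean of at least 5 FPKM, the pattern most like that of BRD2 was PITPNA (0.974), then HEXIM1, and the pattern most like that of HEXIM1 was ACAD8 (0.976), then BRD2. HEXIM2 was most like MRPS18B (0.980), ELL2 most like PIM1 (0.984), SLAIN1 (0.982) and THBS1 (0.979), and BRD3 most like CHSY1 (0.950). CDK9 was most like CEP170B (0.930), CCNT1 most like SYNRG (0.972), CCNT2 most like YES1 (0.943) and LARP7 most like HNRNPDL (0.939).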

How the data were processed

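RNA was sequenced from 26 libraries in 13 groups of 2. The submitters' processing notes name TopHat 1.4.1, Cufflinks and the build hg19. The authors deposited 1 table of FPKM per gene, with symbols, Ensembl identifiers and hg19 coordinates. FPKM can move with length, GC content and the few most abundant genes of a library. Extraction was by TRIzol or RNeasy, per the labels' protocols, without saying which for which library. A375 cells at 24 h are not analysed here.

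Groups followed the titles. Values were taken as log2(FPKM + 1) of the deposited table, a gene was kept if at least 2 libraries of the line reached 1 FPKM (16935 in A375, 16753 in NOMO-1, where 36 genes with missing values were left out), and limma 3.58.1 in R 4.3.3 was fitted to each line with a mean per group and the trend and robust options (9 and 4 residual degrees of freedom). Tests were two-sided, adjusted by Benjamini-Hochberg over all genes, with a threshold of 0.05. There were 16 planned comparisons, and 2 were added after the data were seen. The model was tested on simulated data. Promoters came from RefSeq (8 of 9 genes matched), strands and exons from GENCODE 29, matched by identifier, and coordinates from the deposited table.

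All 9 genes are described. From 5 lists of elongation genes, at most 3 per direction and comparison with the smallest adjusted p may be named, and for each of the 9 the 3 genes with the highest correlation. Genes, lists, the omission of 3 libraries and a correction for length and GC content were chosen with earlier results of these data known. Other BET family genes are not reported here. Further alternatives were a pseudocount of 0.1, no filter or 5 FPKM, quantile and median-ratio scaling, plain limma, a replicate block, a fit of only the compared libraries, and leaving out each library.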

Additional observations from a re-analysis of the deposited data

Results flagged for a closer look

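The response to CPI203 differed between tolerant and parental cells by a test of the difference itself in 4 cases. Of all genes tested, 1.91% passed for clone 1, 2.29% for clone 4 and 31.8% for NOMO-1. In NOMO-1, 3 of the 9 genes passed, which is close to the share of all genes. ELL2 rose by less in clone 1 than in parental A375 (-0.95 ± 0.22 on the log2 scale, limma adjusted p = 0.049), a call lost under 10 of 18 alternatives. In NOMO-1, BRD2 (-0.51 ± 0.09) and HEXIM1 (-0.55 ± 0.13) rose by less in tolerant than in parental cells, and the LARP7 effect was higher in tolerant cells (0.46 ± 0.11).

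The change from untreated cells to 6 h of DMSO differed between clones and parental A375 by the same kind of test. These comparisons were added after the data were seen, and solvent and time cannot be told apart in them. Of all genes, 21.5% passed for clone 1 and 20.7% for clone 4. For clone 1 the differences were -0.72 ± 0.15 for BRD2, -0.68 ± 0.13 for HEXIM1, 1.04 ± 0.23 for HEXIM2 and 0.49 ± 0.13 for LARP7. The LARP7 call was lost under 6 of 18 alternatives. For clone 4 they were -0.92 ± 0.15 for BRD2, -0.94 ± 0.13 for HEXIM1 and 1.10 ± 0.23 for HEXIM2.

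Another 4 pairs of effects, 1 from each cell line, had opposite directions with no overlap between their libraries, and the difference was not tested. BRD3 in DMSO was lower in clone 4 than in parental A375 (-0.97) and higher in tolerant than in parental NOMO-1 (0.30), a gap of -1.26. Under CPI203, LARP7 was lower in clone 1 (-0.46) and higher in tolerant NOMO-1 (0.40), a gap of -0.86. In clone 4 the LARP7 difference was -0.22, a gap of -0.61 to tolerant NOMO-1. That clone 4 value did not pass, and it was -0.16 without the 3 libraries that stood apart. The share of all genes with such pairs was not counted. In DMSO, LARP7 stood at 0.17 in clone 1 and -0.07 in tolerant NOMO-1 against their parental cells, a gap of 0.25, and neither value passed.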

How the results depend on the processing

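Of 144 results (9 genes in 16 comparisons), 63 passed, and 38 of these passed under every alternative run; of the 81 that did not pass, 47 stayed so. The number of the 9 genes past the threshold moved by over 1.5 times in the following cases, and the cause was not tested. With the compared libraries alone in the fit it was 4 in place of 7 for CPI203 in parental A375, 0 in place of 5 for CPI203 in clone 4, 1 in place of 2 for clone 4 against parental cells in DMSO, 8 in place of 5 for untreated clone 1 and 2 in place of 4 for DMSO against untreated clone 4. Without the 3 libraries that stood apart it was 4 in place of 1 for clone 1 against parental cells in DMSO, 8 in place of 5 for untreated clone 1, and 1 in place of 0 for DMSO against untreated parental A375. For the clone 1 difference of CPI203 effects, in place of 1 it was 0 without the filter, with the filter at 5 FPKM and with the replicate block, and 2 under quantile normalization, without the 3 libraries and with the length and GC correction. For the clone 4 difference, in place of 0 it was 1 with a pseudocount of 0.1 and 2 under quantile normalization, without the 3 libraries and with the length and GC correction. For DMSO against untreated parental A375, in place of 0 it was 1 under quantile normalization and under median-ratio scaling, and 4 with the length and GC correction. That correction also gave 7 in place of 4 for CPI203 in parental NOMO-1, and turned the sign of CCNT2 there (-0.22, against 0.13 without it, which had not passed).

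Leaving out each library in turn gave 4 to 6 for CPI203 in parental A375, 3 to 8 in clone 4, 0 to 1 and 0 to 3 for the differences of effects of clone 1 and clone 4, 2 to 6 for clone 4 against parental cells in DMSO, and 0 to 1 and 3 to 7 for DMSO against untreated parental and clone 4 cells. The replicate block gave 5 in place of 3 for the NOMO-1 difference of effects, with CDK9 and ELL2 added. The numbers were not taken as pairing the libraries, since not every pair of groups exceeded a correlation of 0.1: replicate differences of 2 groups correlated at -0.729 to 0.721 over 36 pairs of A375 groups and at 0.0184 to 0.386 over 6 pairs of NOMO-1 groups, 4 of them above 0.1. Over all genes, the fit of only the compared libraries called 24 in place of 3998 for CPI203 in clone 4, 6717 in place of 3733 in clone 1 and 3977 in place of 6160 in parental A375. No depth is known, so counting error at the low levels of HEXIM2, CCNT2 and ELL2 could not be given.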
